A study of Mus musculus with 6 samples.

Results

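The 10 genes described here mark or direct the oligodendrocyte lineage, and they were followed in neural stem cells from young and old mice. The genes were Nkx2-2, Olig1, Olig2, Sox10, Pdgfra, Cspg4, Lhfpl3, Gpr17, Ugt8a and Cldn11, and they were taken by name. The list was chosen with earlier results of these data known. A probe set is a group of short probes on the array that reads 1 transcript, and a probe set counted as a member when the platform annotation gave it 1 symbol and that symbol was one of the 10. This gave 17 probe sets of 10 genes, out of 45037 probe sets and 18193 named genes on the array. Messenger RNA was measured on 6 Affymetrix arrays, 1 sample per array. There were 3 samples labelled YoungNSC from C57BL/6JRj mice aged 6 weeks and 3 labelled OldNSC from mice of the same strain aged 9 months. All samples carried the same cell type label, neural stem cells, and no genotype or treatment was given for either age. The labels name neither the brain region nor the culture, and do not tell whether replicates were separate animals, so the p-values rest on the spread of these arrays, which could be technical.

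Oligodendrocytes wrap axons in myelin and arise from progenitors that are themselves made by neural stem cells. Olig2 and its neighbour Olig1 are basic helix-loop-helix transcription factors that open the lineage, and Olig2 is also present in dividing neural progenitors that have not chosen a fate. Nkx2-2, a homeodomain factor, and Sox10, a factor of the SOX family, act with them as progenitors commit and mature. Progenitors carry the growth factor receptor Pdgfra and the proteoglycan Cspg4, also called NG2. Committed precursors pass through a stage with the receptor Gpr17, and myelin formation then needs enzymes and membrane proteins such as Ugt8a and Cldn11.

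Old cells held lower levels of Nkx2-2, of the progenitor surface genes Pdgfra, Cspg4 and Lhfpl3, and of the myelin genes Ugt8a and Cldn11. Olig1 and Olig2 were high at both ages and no difference between ages was detected. Sox10 stayed at the lowest value of the table on all 6 arrays, and Gpr17 never rose above background. Values are log2 expression levels, so that 1 unit is a change by a factor of 2, and log2 4 was taken as background in place of detection calls. A probe set was kept for testing when 3 or more of the 6 arrays read over log2 4. Of the 17 member probe sets 9 were kept, covering 8 of the 10 genes, and 6 of the other 8 sat at the lowest value, 2.14, on every array. In limma, with p-values adjusted by Benjamini and Hochberg's method over the 19858 kept probe sets, 7 of the 9 fell at an adjusted p under 0.05 and 0 rose. Among all kept probe sets 16.5% fell and 20.1% rose. The 3 old arrays lay entirely below the 3 young arrays for the same 7 members, as they did for 25.9% of all kept probe sets. The probe sets of Nkx2-2 and Ugt8a passed the filter through the young arrays alone and so had to differ. Of the other 7, which lay above log2 4 on all 6 arrays and cover 6 genes, 5 fell, against 16.0% of all 18685 probe sets above log2 4 on every array. The median difference of these 7 was -1.94 on the log2 scale, against 0.01 for the 18685. Because the members were chosen with earlier results of these data known, these shares and medians are descriptions and not a test.

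**Figure D1:**
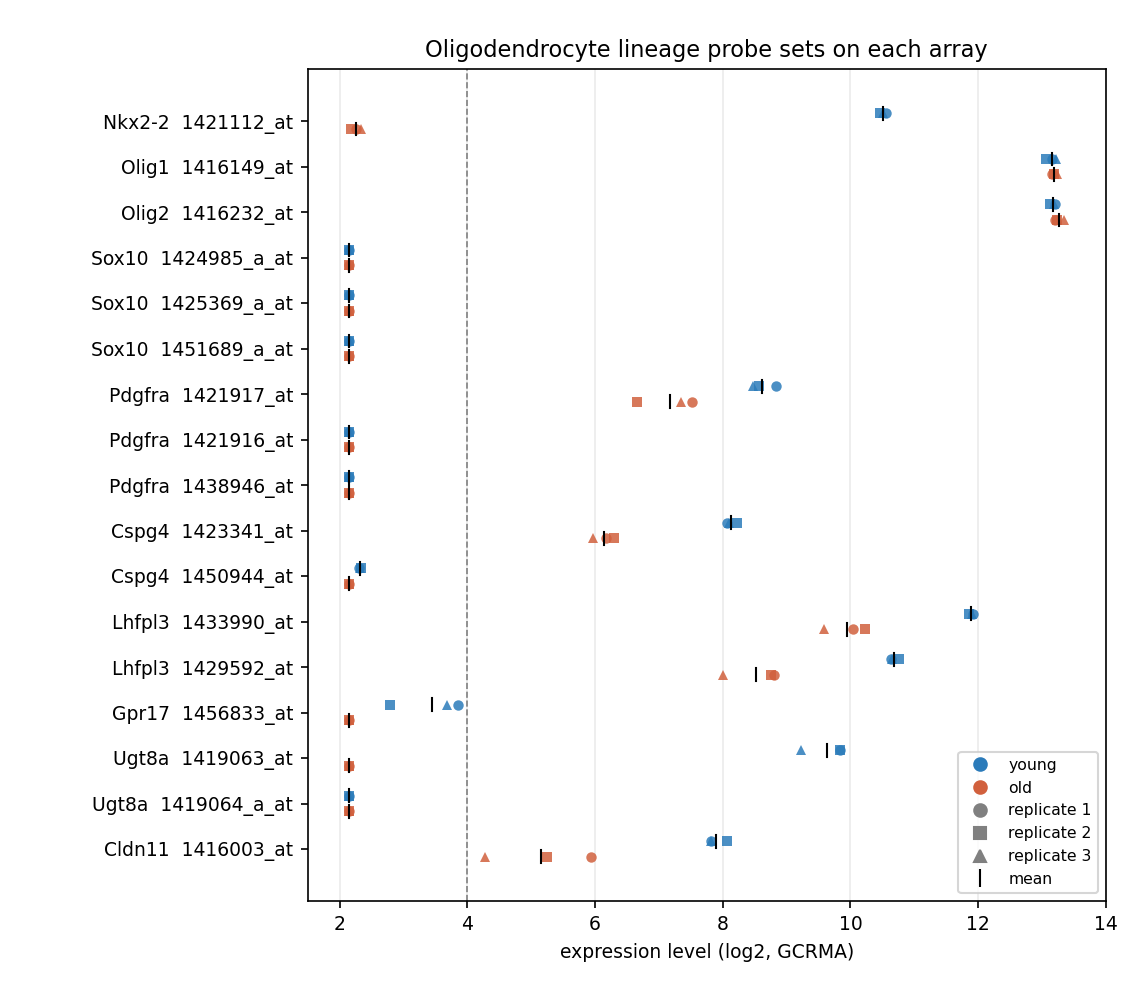
Log2 expression level of each of the 17 member probe sets on the 6 arrays, young in blue and old in red, with 1 symbol shape per replicate number, black ticks for the mean of each age, and a dashed line at log2 4. The old arrays lie to the left of the young arrays for Nkx2-2, Lhfpl3, Ugt8a and Cldn11, among others, while Olig1 and Olig2 lie together near 13 at both ages and the 3 Sox10 probe sets stay at 2.14.

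The 6 arrays were alike in their overall scale. Between 38.3 and 40.4% of the probe sets on an array sat at the lowest value. Over kept probe sets, old pairs of arrays correlated at r = 0.995, young pairs at 0.979 to 0.993 and mixed pairs at 0.915 to 0.944, where probe sets are not independent replicates. The 18 probe sets for hybridisation controls, RNA added in a fixed amount, averaged 13.24 ± 0.285 on young arrays and 12.28 ± 0.0984 on old arrays (log2, SD, n = 3), and in each of them the old arrays lay below the young ones. This difference of -0.96 ran along with every fall and every rise described here, and its part in them was not tested. Precision is limited by how few arrays there are.

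The labelled cell type was checked against marker lists. Each marker was read by its brightest kept probe set, and among all kept named genes 18.5% fell and 22.0% rose. Of 13 neural stem cell markers with a probe set, 12 were kept, among them Sox2 at 13.44 ± 0.0762 in young and 13.30 ± 0.0429 in old cells (log2, SD, n = 3). Of these 12, 5 fell, 1 rose and 6 did not pass. Those that fell were Hes5, from 7.78 in young to 2.43 in old cells and so under background, and Sox1, Nes, Sox9 and Egfr. Hes5 passed the filter through the young arrays alone and so had to differ. Msi1 rose, and Prom1 was not kept. Because Cspg4 also marks pericytes and Pdgfra also marks fibroblasts, the markers of those cells were read as well. Of 11 mural cell markers 2 were kept and both fell, Notch3 by 0.58 and Acta2 by 1.33 on the log2 scale, while the defining pericyte markers Pdgfrb, Kcnj8 and Abcc9 sat at 2.14 at both ages. The summed log2 level of that list was 38.3 to 39.2 on young and 36.2 to 37.3 on old arrays. Of 10 fibroblast markers 1 was kept and did not pass, with Col1a2, Col3a1, Dcn and Lum at 2.14, and the summed level was 26.8 to 28.0 on young and 26.5 to 26.8 on old arrays. Sox10 also marks Schwann cells, and of 7 markers of those cells with a probe set 4 were kept, 1 lower and 2 higher in old cells, with Foxd3 and Ngfr at 2.14 and summed levels of 51.5 to 51.8 in young and 52.3 to 52.7 in old cells. Neuroblast and neuron markers were mostly lower too, with 6 of 8 kept markers lower, 1 higher and a median difference of -2.15 on the log2 scale. Neurod1 and Snap25, both lower, passed the filter through the young arrays alone and so had to differ. Another 4 markers were not kept, among them Stmn2 and Rbfox3 at 2.14. The summed log2 level of the list was 82.9 to 86.8 on young and 63.0 to 64.8 on old arrays. Of 9 kept astrocyte markers 4 rose and 3 fell, Gjb6 sat at 2.14, and the summed level was 84.0 to 88.0 in young and 88.2 to 92.2 in old cells. Of 5 kept ependymal markers 4 rose and 1 fell, and Tmem212 sat at 2.14. Foxj1, which rose, passed the filter through the old arrays alone and so had to differ. The summed level of the ependymal list was 34.6 to 36.4 in young and 38.5 to 40.1 in old cells. Of 10 microglial markers 1 was kept and did not pass, with 8 at the lowest value on all arrays and summed levels of 22.6 to 23.3 in young and 23.7 to 25.8 in old cells. Of 8 endothelial markers 1 was kept and fell, with 5 at the lowest value throughout and summed levels of 21.4 to 21.5 in young and 19.9 to 21.1 in old cells. The part of these other cell types in the results was not tested, and in bulk samples fewer cells of a type and less RNA per cell cannot be told apart.

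The start regions of 4 members are shown because these genes behaved differently between the ages: Nkx2-2 and Ugt8a fell to background, Pdgfra fell but stayed above it, and Olig2 showed no detected difference. Each sequence is the 250 bases before the transcript start in RefSeq, assembly GRCm38.p6, read 5′ to 3′ on the strand of the gene. Capitals mark the letters searched for.
Nkx2-2, chr2:147186403-147186652, minus strand: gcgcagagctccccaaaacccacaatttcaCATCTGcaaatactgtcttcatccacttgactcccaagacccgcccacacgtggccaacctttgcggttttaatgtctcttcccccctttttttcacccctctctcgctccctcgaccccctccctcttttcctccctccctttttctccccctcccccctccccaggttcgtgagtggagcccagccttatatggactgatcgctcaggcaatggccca
Ugt8a, chr3:125938653-125938902, minus strand: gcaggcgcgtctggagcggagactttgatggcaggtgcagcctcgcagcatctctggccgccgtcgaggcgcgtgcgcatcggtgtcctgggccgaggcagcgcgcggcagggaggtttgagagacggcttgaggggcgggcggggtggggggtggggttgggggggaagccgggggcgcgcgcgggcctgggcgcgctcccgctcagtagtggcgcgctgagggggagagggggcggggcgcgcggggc
Pdgfra, chr5:75152001-75152250, plus strand: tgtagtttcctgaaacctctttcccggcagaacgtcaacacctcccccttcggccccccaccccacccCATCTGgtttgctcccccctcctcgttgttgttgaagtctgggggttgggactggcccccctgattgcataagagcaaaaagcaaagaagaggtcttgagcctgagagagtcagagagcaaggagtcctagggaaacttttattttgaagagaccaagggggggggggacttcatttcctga
Olig2, chr16:91225300-91225549, plus strand: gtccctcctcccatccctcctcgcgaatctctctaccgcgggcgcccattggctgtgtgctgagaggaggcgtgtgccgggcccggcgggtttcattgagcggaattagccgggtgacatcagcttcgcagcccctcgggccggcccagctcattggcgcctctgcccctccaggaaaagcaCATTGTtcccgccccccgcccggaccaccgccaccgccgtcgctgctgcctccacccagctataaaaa
A pair of E-box words read by basic helix-loop-helix factors (CAGCTG and CAGATG), a pair of words of the SOX type (ACAAAG and ACAATG) and one of the NKX2 type (CACTTAA) were searched on both strands. None of these words overlaps another where it was found. CAGATG occurred in the regions of Nkx2-2, at base -220, and Pdgfra, at base -182, where -1 is the base before the start, and 14.4% of all 32851 such regions hold it. ACAATG occurred at base -68 of Olig2, and 10.7% of all regions hold it. CAGCTG was found at bases -158 and -149 of Lhfpl3, whose region is not printed, and in 13% of all regions. ACAAAG and CACTTAA were in 0 of the 7 member regions in the table, and in 16.5 and 2.10% of all regions. The 7 regions, those of Cspg4 and Cldn11 included, held 54.4 to 76.8% G and C, against a median of 52.4% over all regions. These letters are descriptions of sequence and were not set against any binding data.

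The transcription factors of the lineage did not move as one. Nkx2-2 (probe set 1421112_at) read 10.56, 10.46 and 10.51 on the young arrays and 2.26, 2.17 and 2.34 on the old arrays (log2, replicates 1 to 3). All old arrays lay under background and all young arrays far above it, with no overlap. With the old level set to log2 4, the fall was at least 91.2-fold (adjusted p = 2.79e-07). The fitted difference was -8.25 on the log2 scale and ranked 4 from the bottom among the 19858 kept probe sets. Difference, rank and adjusted p all depend on where the lowest value lies. The probe set passed the filter through the young arrays alone and so had to differ.

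Olig1 (1416149_at) read 13.16, 13.07 and 13.22 on the young arrays and 13.16, 13.19 and 13.23 on the old arrays. Olig2 (1416232_at), its neighbour in the genome and the factor with the earlier role, read 13.20, 13.12 and 13.19 on the young arrays and 13.20, 13.24 and 13.34 on the old arrays. The ages overlapped for both genes. For Olig1 the difference was 0.04 on the log2 scale, with a 95% interval of -0.10 to 0.19, or 0.933 to 1.14 times the young level (adjusted p = 0.57). For Olig2 the difference was 0.09 with an interval of -0.06 to 0.23, or 0.961 to 1.18 times the young level (adjusted p = 0.281). Neither passed the test, and a fall in old cells by the size of the fall of any called member lay outside both intervals. Both genes read near the upper end of a table whose highest value is 15.61, and whether such bright probe sets are compressed was not tested.

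Sox10 was read by 3 probe sets, 1424985_a_at, 1425369_a_at and 1451689_a_at, and all of them sat at 2.14 on all 6 arrays. No level and no difference could therefore be measured for it. Sox8 and Sox9, the other members of its subfamily, were bright at both ages. Sox9, which acts in glial specification, fell by 0.35 on the log2 scale from 13.37 ± 0.0288 in young cells (SD, n = 3, adjusted p = 0.00437). Sox8 had a difference of 0.20 and did not pass (adjusted p = 0.132). Among the other relatives of the factors, Olig3 and the homeobox genes Nkx2-1, Nkx2-4, Nkx2-5 and Nkx2-6 sat at 2.14 at both ages.

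The surface genes of progenitors fell 2.72- to 4.48-fold and stayed above background in old cells. Pdgfra, the receptor through which platelet-derived growth factor keeps progenitors dividing, read 8.83, 8.56 and 8.47 on the young arrays and 7.52, 6.66 and 7.35 on the old arrays at probe set 1421917_at. Old replicate 2 was the lowest, and the ages did not overlap. The level in old cells was 2.72-fold lower, with a 95% interval of 1.77 to 4.17 (log2 difference -1.44, SE 0.246, adjusted p = 0.00854). The other 2 probe sets of Pdgfra, 1421916_at and 1438946_at, sat at 2.14 on all arrays, so that the fall rests on 1 of 3 probe sets.

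Cspg4, the NG2 proteoglycan on the progenitor surface, read 8.07, 8.22 and 8.10 on the young arrays and 6.17, 6.29 and 5.96 on the old arrays at probe set 1423341_at. The replicates of each age lay close together, far from those of the other age. The fall was 3.98-fold, with an interval of 3.33 to 4.74 (log2 difference -1.99, SE 0.101, adjusted p = 0.000184). Its second probe set, 1450944_at, lay at 2.30 to 2.34 on the young arrays and at 2.14 on the old ones, under background throughout.

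Lhfpl3, a membrane protein of the tetraspan LHFPL family whose transcript is rich in oligodendrocyte progenitors, was read above background by both of its probe sets. At 1433990_at it read 11.92, 11.86 and 11.90 on the young arrays and 10.04, 10.23 and 9.58 on the old arrays. At 1429592_at it read 10.64, 10.76 and 10.65 on the young arrays and 8.81, 8.75 and 8.00 on the old arrays. Both probe sets put every old array below every young one, with old replicate 3 the lowest. The falls were 3.84-fold (interval 2.86 to 5.17, adjusted p = 0.001) and 4.48-fold (interval 3.02 to 6.65, adjusted p = 0.00177), and each interval holds the estimate of the other. Of its 3 measured relatives, Lhfp fell by 0.17 on the log2 scale (adjusted p = 0.0326), while Lhfpl4 with a difference of -0.41 (adjusted p = 0.0603) and Lhfpl2 with one of 0.18 (adjusted p = 0.233) did not pass.

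**Figure D2:**
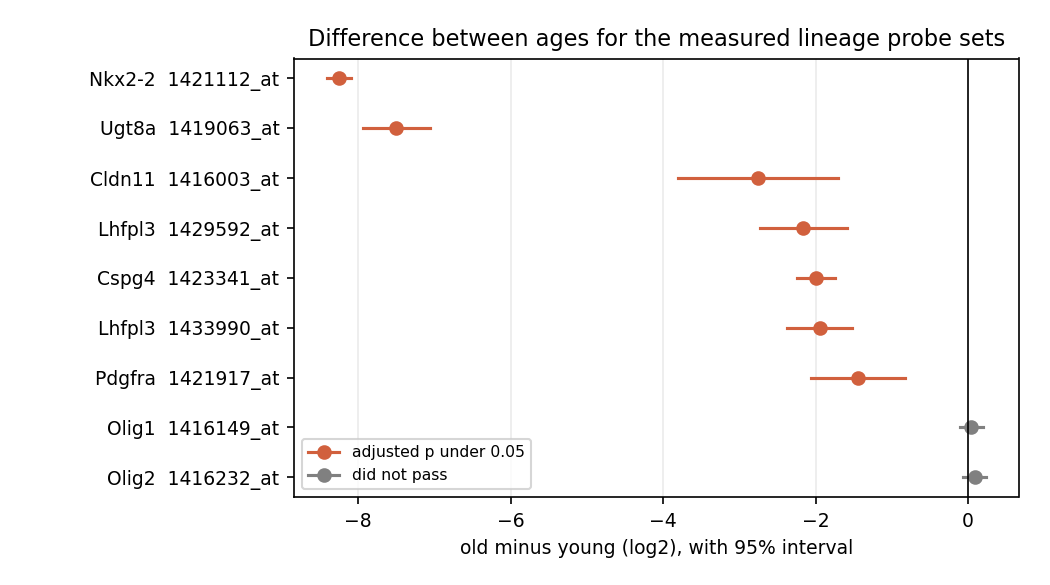
Difference between old and young cells on the log2 scale for the 9 kept member probe sets, with 95% intervals from limma, in red where the adjusted p was under 0.05 and in grey where it was not. The intervals of Olig1 and Olig2 cover 0, those of Pdgfra, Cspg4 and the 2 Lhfpl3 probe sets lie between -2.73 and -0.83, and Ugt8a and Nkx2-2 lie below -7.

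Gpr17, an orphan receptor that marks precursors on their way to becoming oligodendrocytes, read 3.86, 2.79 and 3.68 on the young arrays and 2.14 on every old array at its single probe set, 1456833_at. All values lay under log2 4, so it was not kept and has no call. Tested with no filter, its difference of -1.30 on the log2 scale did not pass (adjusted p = 0.086).

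Of the genes tied to myelin, Ugt8a, the enzyme that makes galactosylceramide, read 9.83, 9.84 and 9.23 on the young arrays and 2.14 on every old array at 1419063_at. The old cells were at the lowest value of the table, and young replicate 3 was the lowest of the young arrays. Against log2 4 the fall was at least 49.6-fold (adjusted p = 1.47e-05). The spread in old cells is 0 because of that lowest value, so the error of the fit is understated. Its other probe set, 1419064_a_at, sat at 2.14 on all 6 arrays.

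Cldn11, a claudin that forms the tight junctions between the turns of myelin, read 7.82, 8.06 and 7.82 on the young arrays and 5.93, 5.24 and 4.28 on the old arrays at 1416003_at. The old arrays spread over 1.65 on the log2 scale and the young ones over 0.24, with old replicate 3 close to background. The fall was 6.75-fold with an interval of 3.27 to 13.9 (log2 difference -2.75, SE 0.417, adjusted p = 0.00576). Of the 19858 kept probe sets 1.43% had a lower difference, against 2.29% for Cspg4 and 3.53% for Pdgfra. Of the other claudins on the array, Cldn12 was kept and fell by 0.20 on the log2 scale (adjusted p = 0.0442), and was chosen for mention after its value was seen.

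Genes of the same pathways were then read beside the members, each gene by its brightest kept probe set, and the counts are to be set against the 10050 named genes that were kept, of which 18.5% fell and 22.0% rose. Among other genes of oligodendrocyte progenitors, 18 of 28 on the array were kept, of which 6 fell, 4 rose and 8 did not pass, with a median difference of -0.01 on the log2 scale against 0.01 for all kept genes. Dscam, a cell adhesion molecule, went from 9.86 ± 0.0568 in young to 4.36 ± 0.265 in old cells (SD, n = 3), a difference of -5.50 (adjusted p = 1.86e-05), and its other kept probe set had a difference of -4.81. Cacng4, an auxiliary subunit of glutamate receptors, had one of -2.13 and the small GTPase Rras2 one of -1.07. The sulfatase Sulf2 rose by 0.49, while another of its probe sets read 0.02 (adjusted p = 0.847). The kinase Fyn and the endothelin receptor Ednrb were bright and did not pass, with differences of -0.03 and 0.01. These genes thus went both ways.

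Genes of differentiating and myelinating oligodendrocytes went both ways or were not measurable. Of 36 on the array 18 were kept, of which 5 fell, 5 rose and 8 did not pass, with a median difference of 0.09 on the log2 scale. Another 10 sat at the lowest value on all 6 arrays, among them Mbp, Mog and Mag, which encode proteins of the myelin sheath. Aspa, an enzyme of acetylaspartate breakdown, rose at least 12.6-fold from under background (adjusted p = 5.1e-06). It passed the filter through the old arrays alone and so had to differ, and its adjusted p depends on levels under background. Bcas1, a marker of oligodendrocytes that begin to form myelin, rose by 0.93 at its brightest probe set (adjusted p = 0.00047) and by 2.86 and 2.71 at the other 2. The carbonic anhydrase Car2 rose by 0.60 on the log2 scale. The actin-severing protein Gsn fell by 1.73 (adjusted p = 7.01e-05). Qdpr and the myelin enzyme Cnp, both bright, did not pass, with differences of 0.05 and -0.09. Gjc3, a connexin of myelinating glia that was picked after its values were seen, went from 7.76 ± 0.174 to 3.97 ± 0.914 (log2, SD, n = 3, adjusted p = 0.00286). Its old arrays ran from 2.92 to 4.53, around background, so the size of its fall is uncertain.

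**Figure D3:**
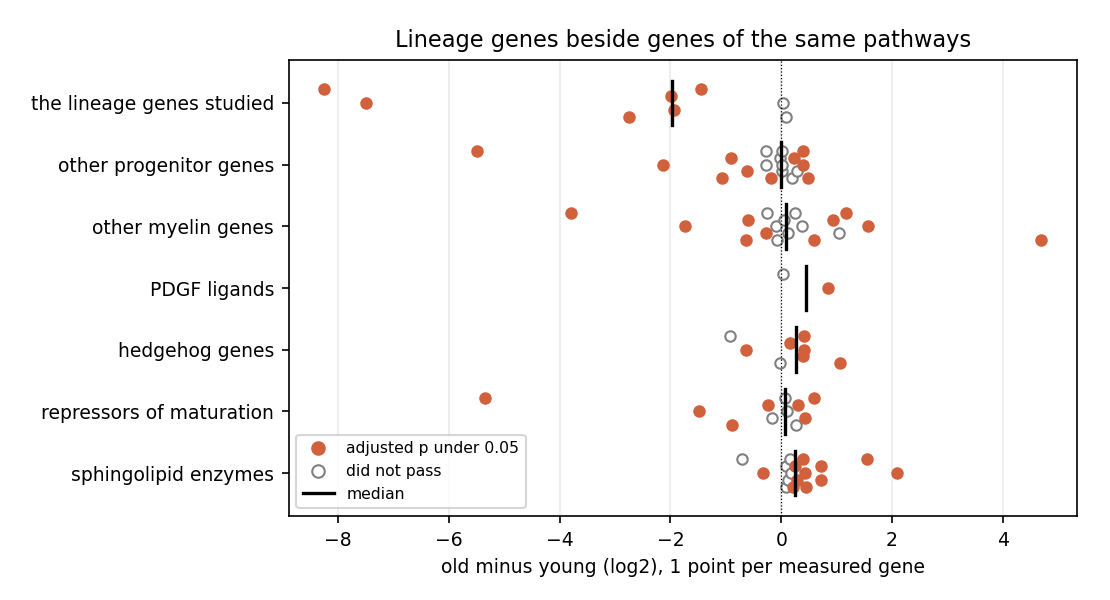
Difference between old and young cells on the log2 scale for the kept genes of 7 lists, the lineage genes and 6 lists of related pathways, with 1 point per gene at its brightest kept probe set, filled where the adjusted p was under 0.05 and open where it was not, with a black bar at the median of the list. The median of the lineage genes studied is -1.97, while the medians of the 6 pathway lists lie between -0.01 and 0.44. The -1.97 includes Nkx2-2 and Ugt8a, which passed the filter through the young arrays alone and so had to differ. The 7 member probe sets above log2 4 on all 6 arrays, both Lhfpl3 probe sets included, had a median of -1.94. The markers of other cell types are not drawn, and among them the 8 kept neuroblast and neuron markers had a median of -2.15. That median includes Neurod1 and Snap25, which likewise passed the filter through the young arrays alone.

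Signals that act on progenitors were read next. Pdgfa, the ligand of Pdgfra, rose by 0.84 on the log2 scale, from 12.08 ± 0.0340 in young to 12.92 ± 0.0772 in old cells (SD, n = 3, adjusted p = 0.000461), and by 1.27 at its second probe set. The ligand and its receptor thus differed in opposite directions between the ages. Pdgfc, another ligand of the receptor, had a difference of 0.04 and did not pass (adjusted p = 0.713), and Pdgfb and Pdgfrb sat at 2.14 on all arrays. Hedgehog signalling switches on Olig2 and Nkx2-2 in the ventral neural tube of the embryo. Of its 14 genes on the array 8 were kept, of which 5 rose, 1 fell and 2 did not pass, with a median difference of 0.28 on the log2 scale. The transducer Smo rose by 1.06 (adjusted p = 0.00177), the effector Gli3 by 0.42, the inhibitor Sufu by 0.40 and the co-receptor Boc by 0.41. Ptch1, receptor and target of the pathway, had a difference of -0.02 (adjusted p = 0.804) and Cdon one of -0.93 (adjusted p = 0.0937), and neither passed. Gli1, a target gene often taken as a readout, sat at 2.14 at both ages.

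Of 11 kept genes that restrain oligodendrocyte differentiation 4 fell, 3 rose and 4 did not pass, with a median difference of 0.07 on the log2 scale. The Notch effector Hes5 fell at least 13.7-fold, but it passed the filter through the young arrays alone and so had to differ. Bmp7, a bone morphogenetic protein, fell by 0.88 on the log2 scale. The helix-loop-helix inhibitor Id4 fell by 1.49, while the Notch ligand Jag1 rose by 0.60. Notch1 and Id1 had differences of 0.10 and -0.17 and did not pass. Genes of sphingolipid metabolism, most of them enzymes around Ugt8a, were more often higher than lower in old cells. Of 17 such genes that were kept 10 rose, 1 fell and 6 did not pass, with a median difference of 0.25 on the log2 scale. The ceramide synthase Cers6 rose by 0.71, the sphingomyelin synthases Sgms2 by 0.72 and Sgms1 by 0.45, and the ceramidase Asah2 by 2.09 (adjusted p at most 0.00552 for each). Ugcg, which adds glucose to ceramide where Ugt8a adds galactose, fell by 0.33 (adjusted p = 0.0078), and at its other kept probe set the difference of -0.13 did not pass. Kdsr and Degs1, enzymes of ceramide synthesis, had differences of 0.18 and 0.12 and did not pass.

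Of the relatives of Pdgfra, the receptor kinase Kit rose by 0.83 on the log2 scale (adjusted p = 0.00223). Among 10042 kept genes outside the members, those whose log2 values, centred on their own mean, lay nearest to a member over the 6 arrays were picked out by root mean square distance. Picked for Nkx2-2 were the nicotinic receptor subunit Chrna4, Cacng5 and the membrane protein Tenm3. All 3 had means under log2 4 in old cells, as Nkx2-2 did, so their distances and order carry no measurable size and are not given. Chrna4 averaged 11.87 ± 0.0486 in young and 3.53 ± 0.129 in old cells (log2, SD, n = 3). Nearest to Pdgfra were Ccser1 at 0.153, and the GTPase activator Arhgap32 and the antiproliferative gene Btg2, both at 0.175. Nearest to Olig2 were Sra1 at 0.017, Nit1 at 0.018 and Max at 0.019, which like Olig2 differ little between the ages. With 3 arrays an age, such likeness largely reflects the size of the difference between the ages. Sox10 has no such neighbours because it does not vary.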

How the data were processed

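Total RNA was labelled with biotin and hybridised to 6 arrays, per the labels. Each deposited value is a log2 level of 1 probe set, which the authors obtained by GCRMA according to the submitters' processing notes. This method corrects background, normalizes between arrays and gives dim probe sets nearly the same value, which understates their spread. No GCRMA version was given in those notes.

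Names came from the annotation of the platform, where 34945 probe sets had 1 symbol, 932 had several and 9160 none. Of the single symbols 99.4% matched RefSeq genes of GRCm38.p6, and 0 changed. Ages were compared in R 4.3.3 by limma 3.58.1 with eBayes moderation and no trend (two-sided, 4 residual and 1.47 prior degrees of freedom). The test was tried on simulated data. Figures used matplotlib 3.10.9. The members and lists were chosen with earlier results of these data known. All members were named. From each list of related pathways up to 4 called genes with the smallest p and up to 2 bright genes that did not pass were named. Genes at the lowest value and those marked as chosen after seeing their values were named besides. For the relatives of the members and the cell type markers the names did not follow this rule. Alternatives were other filters, scalings, variance models, thresholds, a replicate block and leaving out arrays.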

Additional observations from a re-analysis of the deposited data

How the results depend on the processing

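The falls of the 5 member probe sets that were lower in old cells and above log2 4 on every array held under all 17 alternatives. Nkx2-2 and Ugt8a were called each time too, but their old arrays lie under background, so these calls say nothing on stability. Over the alternatives the log2 difference was -3.14 to -2.32 for Cldn11, -2.07 to -1.90 for Cspg4, -2.31 to -1.90 and -2.08 to -1.76 for the Lhfpl3 probe sets, and -1.61 to -1.18 for Pdgfra, whose largest adjusted p was 0.047, with no filter. Olig1 (0.00 to 0.08) and Olig2 (0.05 to 0.12) passed under none. With no filter the dim Cspg4 probe set was called too, with a difference of -0.18 under background (adjusted p = 0.00541). Over all probe sets, limma called 7268, of which 3273 were lower in old cells. At an adjusted p under 0.01 it called 3777, of which 1629 were lower. On leaving out 1 array at a time the lower calls numbered 2177 to 3301, the fewest without old replicate 2, and 7 probe sets of the members were called each time. With the replicate number as a block 5600 probe sets and the same count of 7 among the members were called. Same-numbered arrays deviated from their age means with correlations of -0.160, -0.108 and 0.157 across probe sets, so the numbers were not taken as pairs. Quantile normalization and centring moved the median of all kept probe sets from 0.009 to 0.007 and -0.002. Levels under log2 4 carry no measurable size.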

Other observations

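The members that fell without reaching background were more scattered among the old arrays than among the young ones. This held for all 5 such probe sets, those of Pdgfra, Cspg4, Cldn11 and the pair of Lhfpl3, with median SDs of 0.0825 in young and 0.449 in old cells (log2, n = 3 arrays an age). Old replicate 3 was the lowest of the old arrays for 4 of the 5, both Lhfpl3 probe sets among them, and old replicate 2 for Pdgfra. How often old replicate 3 was the lowest over all probe sets was not counted. Over the 19079 kept probe sets with both means above log2 4, the SD was larger in old cells for 35.8%, with medians of 0.115 in young and 0.0856 in old cells. Among the 676 of these that fell by at least 1 on the log2 scale it was larger in old cells for 67.2%, with medians of 0.167 and 0.262. The comparison was chosen after the values were seen, and no test was made of it.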
